A study of Saccharomyces cerevisiae with 4 samples.

Results

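The genes that Saccharomyces cerevisiae transcribes in only 1 of its mating types were followed through Congo red treatment of a strain without SLT2. They are 10 of the 5539 genes named on the array. The a-specific genes were MFA1, MFA2, STE2, STE6, BAR1 and AGA2 (6 genes), and the alpha-specific genes were STE3, SAG1, MF(ALPHA)1 and MF(ALPHA)2 (4 genes). Members were found by gene symbol, and each had 2 spots, 20 in all. MF(ALPHA)1 gave values on 3 arrays and MF(ALPHA)2 on 2, and the other 8 gave values on all 4.

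Haploid yeast mates as an a cell or an alpha cell. Each type secretes its own peptide pheromone, carries the receptor for the pheromone of the other, and displays its own member of a pair of adhesion proteins. In alpha cells the factors encoded at the MAT locus switch the alpha-specific genes on and the a-specific genes off, while in a cells the a-specific genes are on by default with the factor Mcm1. BY4741, from which the strain was derived, is an a strain as commonly described, so its a-specific genes are those expected to be transcribed and the alpha-specific genes those expected to be silent. Slt2 is the last kinase of the signalling cascade that guards cell wall integrity, and Congo red is a chitin-binding dye that weakens the wall.

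The study compared RNA of this slt2 deletion strain in the BY4741 background after 4 h with 30 µg/ml Congo red with RNA of the untreated part of the culture, both grown in rich medium at 24 °C. Both groups lack SLT2, so nothing here compares the mutant with a strain that has the kinase. There were 4 arrays of 2 channels, each holding treated and untreated RNA, with the treated RNA in channel 2 on arrays 1 and 3 and in channel 1 on arrays 2 and 4. Neither the number of cultures behind the arrays nor the number of clones of the strain is given here, so p-values measure only how far these arrays differ, a spread that may be technical.

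Values are log2 ratios of treated over untreated RNA, centred on each array's median, with arrays 2 and 4 multiplied by -1. The direction is likely only: it takes channel 2 as the numerator, and if channel 1 was the numerator every sign turns together. Deposited values correlated positively between arrays of the same channel order (r = 0.27 and 0.31 across spots) and negatively between arrays of opposite order (r from -0.38 to -0.19), which is the basis for the turning. Had the ratios already been set to treated over untreated before deposit, turning them would yield the effect of channel order instead. Usable ratios covered 84.1% to 90.9% of 12800 spots on an array, and the number of arrays limits the precision. A ratio does not show how much of a transcript was present, and fewer cells with a transcript cannot be told apart from less of it per cell.

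The a-specific and alpha-specific genes differed in how well their spots were measured. All 48 of 48 readings of a-specific spots gave a ratio, against 23 of 32 for alpha-specific spots and 88.4% over all named genes. The 9 readings without a usable ratio all belonged to the alpha-factor genes. MF(ALPHA)1 gave 4 of 8 readings, and MF(ALPHA)2 gave 3 of 8 with 1 further reading at the placeholder value. STE3 and SAG1 gave 8 of 8 each.

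Where both spots of a gene were read on an array, those of a-specific genes lay closer together. Their range had a median of 0.054 log2 units over 24 gene and array pairs and a maximum of 0.36 (BAR1 on array 1). For alpha-specific genes the median range was 0.30 over 10 pairs, with a maximum of 2.20 for SAG1 on array 3, whose spots read -4.11 and -1.91. STE3 on array 1 also had spots more than 1 log2 unit apart, at -1.78 and -0.60. Over all genes the median was 0.18 (18553 pairs). No test was made of these ranges, and spot brightness was not analysed here.

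**Figure D1:**
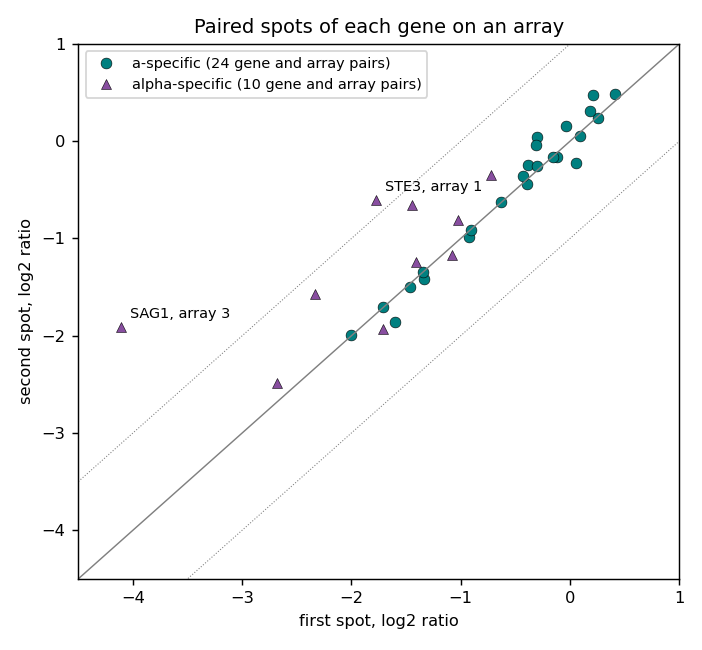
The log2 ratio of the second spot of each mating-type specific gene is plotted against that of its first spot, 1 point for each gene and array with both spots read; the solid line marks equal values and the dotted lines a difference of 1 log2 unit. The 24 a-specific points keep near the line, and only STE3 on array 1 and SAG1 on array 3 fall outside the dotted lines.

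MFA1 and MFA2 encode precursors of a-factor, the lipid-modified pheromone that a cells release. MFA1 (YDR461W) read -1.999, -0.42, -1.71 and -0.16 on arrays 1 to 4. All 4 values were below 0, but arrays 1 and 3 were far lower than arrays 2 and 4. The mean was -1.07 ± 0.92 (SD, n = 4), a 0.476-fold ratio, and limma fitted over the 4481 genes with a value on 4 arrays gave an adjusted p of 0.158. MFA2 (YNL145W) read -1.48, -0.62, -1.34 and -0.95, with less spread between arrays. Its mean was -1.10 ± 0.39 (n = 4), 0.466-fold, with an adjusted p of 0.0665 (limma).

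Neither a-factor gene passed in that fit, which called 0% of the 4481 genes, although 1234 genes had an unadjusted p under 0.05. The smallest adjusted p of any gene there was 0.0522 (limma), just over the threshold. Both a-factor genes fell in a second analysis that kept a gene on an array only where both its spots were read and lay within 1 log2 unit of each other. This duplicate-spot analysis gave MFA1 an adjusted p of 0.0483 and MFA2 one of 0.0111 (limma, 2804 genes). All 6 a-specific genes met its filter with the same means, and 2 of 6 passed, both lower, where 11.5% of all genes tested passed lower. The calls depended on single arrays. Without array 1 the adjusted p was 0.121 for MFA1 and 0.0309 for MFA2, without array 2 it was 0.0498 and 0.0101, without array 3 it was 0.204 and 0.0723, and without array 4 it was 0.0793 and 0.0677, and with array 3 or array 4 left out no gene of the table passed (724 and 904 genes at an unadjusted p under 0.05, limma). Across 21 alternatives the adjusted p ran from 0.00619 to 0.999 for MFA1 and from 0.00548 to 0.999 for MFA2 (limma). The 0.999 came without the turning of arrays 2 and 4, and the next largest were 0.541 for MFA1 and 0.227 for MFA2.

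MFA1 and MFA2 code for nearly the same peptide, and whether their spots tell the transcripts apart was not tested. MFA1 minus MFA2 came to -0.52, 0.21, -0.36 and 0.79 on arrays 1 to 4. These differences are larger than the range between the paired spots of either gene, which was at most 0.06. Their sign changed between arrays, so the means of the pair cannot be ranked.

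AGA2 encodes the binding subunit of a-agglutinin, the adhesion protein of a cells. It read -1.73, -0.32, -1.38 and -0.14 on arrays 1 to 4, below 0 on every array and lowest on the same arrays as MFA1. AGA2 (YGL032C) had a mean of -0.89 ± 0.78 (n = 4), 0.539-fold, with an adjusted p of 0.166 over genes on 4 arrays and 0.0566 in the duplicate-spot analysis (limma). It followed MFA1 closely, lying 0.27, 0.10, 0.33 and 0.020 above it in array order. AGA2 passed in 1 of 21 alternatives, the duplicate-spot analysis with channel order as a second coefficient (adjusted p = 0.00839, limma). There MFA1 and MFA2 passed as well, 3 of 6 a-specific genes, where 12.9% of genes passed lower. Over the alternatives the adjusted p of AGA2 ran up to 0.999, reached without turning arrays 2 and 4, and up to 0.426 in the others (limma).

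The other a-specific genes lay near 0. STE2 (YFL026W), the receptor for alpha-factor, read -0.40, 0.25, -0.91 and 0.45, so arrays 1 and 3 were below 0 and arrays 2 and 4 above. Its mean was -0.15 ± 0.62 (n = 4, adjusted p = 0.726, limma), and the 95% interval from -0.84 to 0.54 takes in falls and rises of considerable size. STE6 (YKL209C), the membrane transporter that exports a-factor, read -0.18, 0.072, -0.083 and 0.061. It had the smallest spread of the 10 genes, with a mean of -0.032 ± 0.12 (adjusted p = 0.881, limma) and a 95% interval from -0.345 to 0.28. BAR1 (YIL015W), the secreted protease that degrades alpha-factor, read -0.13, 0.34, -0.28 and 0.25, a mean of 0.045 ± 0.30 (adjusted p = 0.869, limma) with an interval from -0.37 to 0.46. The signs of these 3 means are not fixed: that of STE6 turned without centring, and that of BAR1 turned when a trend with gene length was removed.

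**Figure D2:**
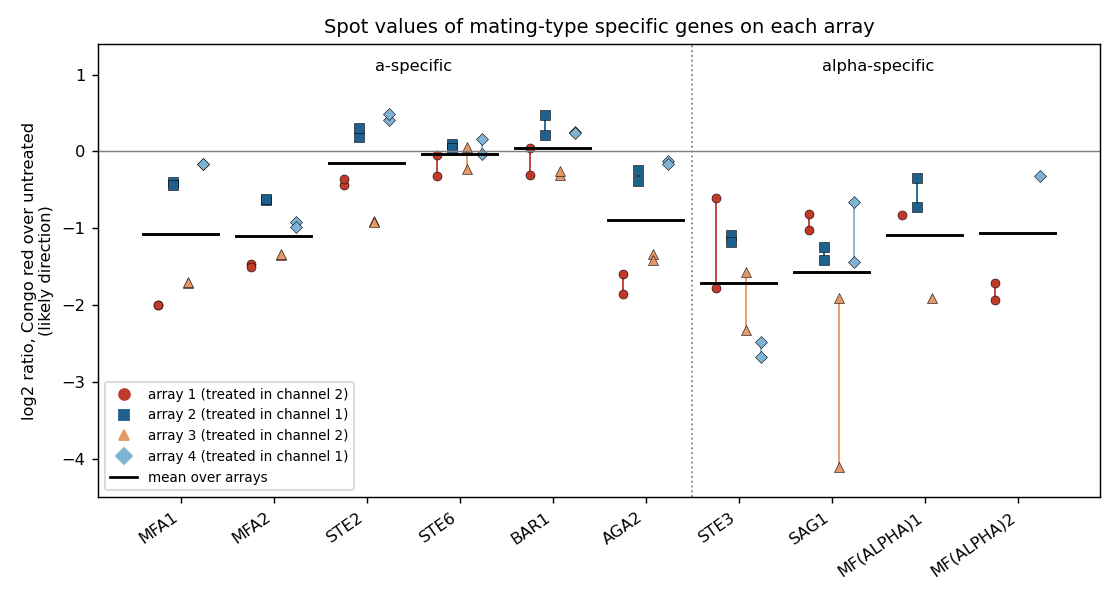
Log2 ratios of treated over untreated RNA are plotted for each spot of the mating-type specific genes, by array, with thin lines joining the spots of a gene on an array and black bars at the mean over arrays. MFA1, MFA2, AGA2, STE3 and SAG1 are below 0 on all 4 arrays, and for each a-specific gene the red and orange symbols of arrays 1 and 3 are below the blue symbols of arrays 2 and 4 on average.

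MFA1, MFA2 and AGA2 lay below STE2 on each of the 4 arrays. The difference from STE2 averaged -0.92 ± 0.46 for MFA1, -0.95 ± 0.41 for MFA2 and -0.74 ± 0.40 for AGA2 (SD, n = 4). This grouping was made after the values were seen and was not tested. By mean the a-specific genes run from MFA2 and MFA1 through AGA2 to STE2, STE6 and BAR1, and each step is smaller than the larger SD of the genes it joins. Array by array, AGA2 lay above MFA1 and below STE2 on 4 of 4 arrays, whereas the differences between MFA1 and MFA2, STE2 and STE6, and STE6 and BAR1 changed sign.

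Channel order moved with every a-specific gene. On 6 of 6 genes both arrays with treated RNA in channel 2 read lower than both arrays with it in channel 1, a pattern held by 15.4% of all genes on 4 arrays. STE3 and SAG1 did not show it (0 of 2). MFA1 averaged -1.85 over arrays 1 and 3 and -0.29 over arrays 2 and 4, and AGA2 averaged -1.55 and -0.23. For MFA2 the averages were -1.41 and -0.79, so both were well below 0.

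STE2 stood at -0.65 and 0.345, BAR1 at -0.20 and 0.295, and STE6 at -0.13 and 0.067 in the same order. By the mean of their spots these receptor, protease and transporter genes therefore changed sign with channel order, as did 3.55% of all genes in that direction. Single spots did not all follow. STE6 spots read 0.056 and -0.222 on array 3 and -0.036 and 0.157 on array 4, and BAR1 spots read -0.306 and 0.048 on array 1. A coefficient for channel order passed for no gene in the fit over genes on 4 arrays (limma, 0% called, 182 genes at an unadjusted p under 0.05). For MFA1 its adjusted p was 0.872 there and 0.138 in the duplicate-spot analysis, at -0.78 ± 0.14 (SE) log2 units, and for AGA2 it was 0.872 and 0.235. The part of channel order in the mean of MFA1 and AGA2 was not tested beyond this coefficient.

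**Figure D3:**
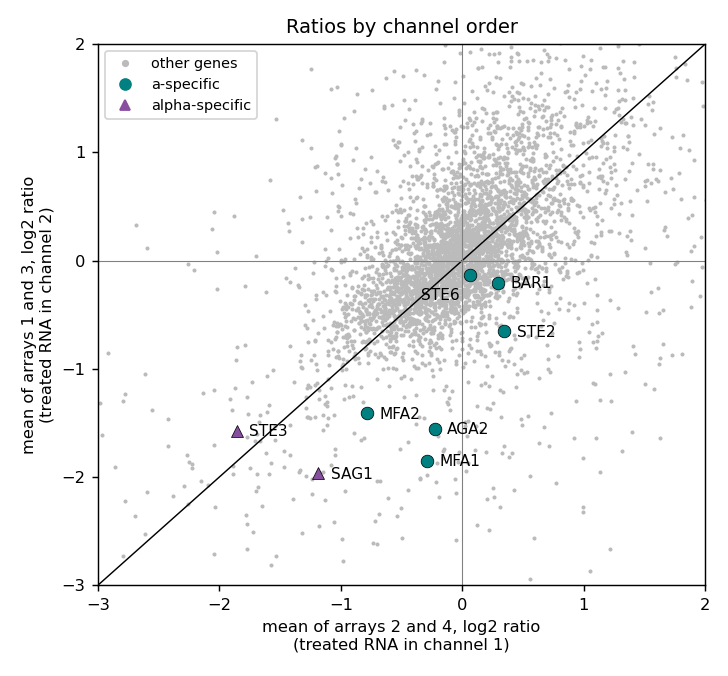
The mean log2 ratio over arrays 1 and 3 is plotted against the mean over arrays 2 and 4 for genes measured on 4 arrays, with equal values on the diagonal; genes beyond the axis limits are not drawn. All 6 a-specific genes are below the diagonal, MFA1 and AGA2 farthest, while STE3 is slightly above it.

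MFA1, MFA2 and AGA2 are also the shortest of the 10 genes. They span 111, 117 and 264 bp, against 1296 bp for STE2, 1764 bp for BAR1 and 3873 bp for STE6. Short genes as a whole stood lower: 72 other genes of up to 300 bp had a median of -0.46, and array medians from -0.52 to -0.35, against 0.12 for 1238 genes between 1200 and 2000 bp. Within the short range MFA2 was lower than all but 1 of the 72 genes, MFA1 than all but 3 and AGA2 than all but 8. After a trend with gene span was removed from each array, MFA1 stood at -0.41, MFA2 at -0.455 and AGA2 at -0.49 in the fit over genes on 4 arrays (adjusted p = 0.541, 0.227 and 0.426, limma). How well the trend holds at spans as short as those of MFA1 and MFA2 was not tested. In the duplicate-spot analysis without the trend no member passed, MFA2 having the smallest adjusted p (0.153, limma), where 7% of genes passed.

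**Figure D4:**
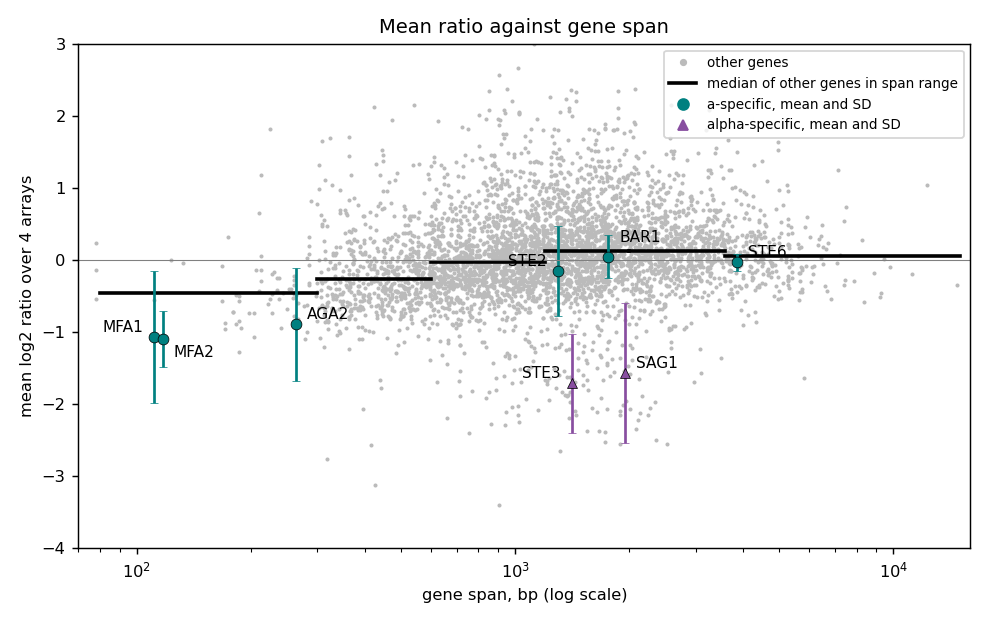
The mean log2 ratio over 4 arrays is plotted against gene span on a log axis, with black bars at the median of the other genes in each range of span and bars of 1 SD on the members. MFA1, MFA2 and AGA2 lie at the short end, below a median of -0.46, whereas STE3 and SAG1 lie far below genes of their own span.

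STE3 and SAG1 had the lowest means of the 10 genes, with arrays 2 and 4 turned. Both are among the genes expected to be silent in an a strain, and whether their spots stood above background was not analysed here. STE3 (YKL178C), the a-factor receptor of alpha cells, read -1.19, -1.13, -1.95 and -2.58 on arrays 1 to 4. Every value was below 0, and the pairs of arrays by channel order overlapped. Its mean of -1.71 ± 0.69 (n = 4), 0.305-fold, had an adjusted p of 0.0665 (limma), and it ranked 61 from the lowest among genes on 4 arrays. SAG1 (YJR004C), the alpha-agglutinin that binds the a-cell adhesion protein, read -0.92, -1.325, -3.01 and -1.05. Array 3, where its spots disagreed, was the lowest, and without it the mean was -1.10. The mean over all arrays was -1.575 ± 0.97, 0.336-fold, with an adjusted p of 0.0969 (limma). The order of the classes rests on the turning of arrays 2 and 4. With no sign turned STE3 stood at 0.14 and SAG1 at -0.39, above MFA1 at -0.78 and AGA2 at -0.66, and MFA2 stood at -0.31.

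STE3 and SAG1 span 1413 and 1953 bp, where other genes had a median of 0.12. Only 2.26% and 3.23% of 1238 genes of that range were lower. Removal of the length trend left STE3 at -1.82 and SAG1 at -1.72 (adjusted p = 0.0747 and 0.106, limma). Neither was in the duplicate-spot analysis of 4 arrays, because each had 1 array with spots over 1 log2 unit apart. Without array 1 STE3 met that filter and passed lower, at -1.89 (adjusted p = 0.0221, limma, 3 arrays, 3542 genes, of which 5.62% passed lower). Without array 3 SAG1 met it at -1.10 and did not pass (adjusted p = 0.0704, limma). For STE3 the adjusted p ran from 0.0221 to 0.999 over 15 alternatives (limma). The 0.999 came without turning arrays 2 and 4, and the next largest was 0.224. Only with the spot filter and without array 1 did STE3 pass.

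The alpha-factor genes, each coding for a precursor cut into copies of the alpha pheromone, were read on fewer arrays. MF(ALPHA)1 (YPL187W) stood at -0.83, -0.53 and -1.905 on arrays 1, 2 and 3, a mean of -1.09 ± 0.72 (n = 3). MF(ALPHA)2 (YGL089C) stood at -1.82 on array 1 and at -0.315 on array 4, where 1 spot was read. All of these values were below 0, and their spread is wide. In a fit of the 5442 genes with at least 2 arrays, which called 0% of genes and had 1445 at an unadjusted p under 0.05, their adjusted p was 0.17 and 0.315 (limma).

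Of the 8 members on 4 arrays, 5 were below 0 on every array, where 21.3% of all genes were, and none was above 0 on every array, where 20.4% of all genes were. At an unadjusted p under 0.05 (limma) there were 5 of 8 members, where 27.5% of all genes lay. The median was -0.52 for the 6 a-specific genes and -1.645 for STE3 and SAG1, against 0.022 for all genes. STE3 minus SAG1 came to -0.27, 0.195, 1.06 and -1.54 on arrays 1 to 4, a mean of -0.14 ± 1.08 with a sign that changed between arrays. STE3 was lower than STE2, the receptor of the opposite type, on 4 of 4 arrays, by -1.56 ± 1.01 on average.

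Likeness of pattern was measured by the root-mean-square difference over the 4 arrays, among 4473 other genes. The nearest to the mean of MFA1 and MFA2 were DAS2 (0.31), XKS1 (0.32), the xylulokinase gene, CYB2 (0.39), a lactate dehydrogenase of mitochondria, CWP2 (0.39), a wall mannoprotein, and RPS28A (0.405), a ribosomal protein. The median gene was 1.35 away. MFA1 and MFA2 were 0.52 from each other, but that is not a distance to their mean. The mean lies midway between them, so each was nearer to it than that. XKS1 read -2.05, -0.60, -2.03 and -0.80, lower on arrays 1 and 3 like MFA1. CWP2 and RPS28A are short, at 279 and 204 bp, whereas XKS1 and CYB2 span 1803 and 1776 bp. The nearest to the mean of STE3 and SAG1 were YLF2 (0.27), MRM2 (0.29), a methyltransferase of mitochondrial ribosomal RNA, HSP32 (0.30), PRP19 (0.32), a splicing factor, and FOL3 (0.34), dihydrofolate synthetase, with a median gene 1.82 away. STE3 and SAG1 were 0.95 from each other, so each lay farther from their mean than any of these genes. The list is therefore of genes near an average that neither STE3 nor SAG1 followed closely.

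Genes that set mating type had a median of -0.26 over 14 of 15 listed genes with values on 4 arrays. Of the 14, 8 were below 0 on every array, where 21.3% of all genes were. Among these 8, MATALPHA1, MATALPHA2, HMRA1 and HMRA2 span only 360 to 633 bp. With the length trend removed they stood nearer 0, at -0.40, -0.19, -0.037 and -0.075. The others, MCM1, SIR1, SIR2 and HO, then stood at -2.27, -2.10, -0.41 and -0.47. MCM1, the factor that acts at both a-specific and alpha-specific promoters, read -2.48, -1.59, -1.87 and -3.17. Its mean of -2.28 ± 0.70 (n = 4) was the lowest of these genes, and it missed the threshold over genes on 4 arrays (adjusted p = 0.055, limma). MCM1 did not meet the spot filter, and it passed with values as deposited and with runs of 400 spots centred. SIR1, which helps to silence the spare mating-type copies at HML and HMR, read -3.31, -1.06, -1.225 and -2.24. SIR1 fell in the duplicate-spot analysis (mean -1.96 ± 1.04, adjusted p = 0.0145, limma), and did so as well without the length trend (adjusted p = 0.0255). CYC8, a subunit of the corepressor that alpha2 recruits, read 0.715, 0.475, 0.37 and 0.34, and rose there (0.47 ± 0.17, adjusted p = 0.0425, limma). CYC8 did not pass without the length trend (adjusted p = 0.109) or with any 1 array left out, whereas SIR1 still passed without array 1 and without array 2. These were 1 call higher and 1 lower of 11 genes, where 5.31% of genes passed higher and 11.5% lower.

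MATALPHA1, which encodes the activator of alpha-specific genes, stood at -0.58 ± 0.51 (n = 4), below 0 on 4 arrays, with an adjusted p of 0.187 (limma). Without the length trend it stood at -0.40 (adjusted p = 0.336, limma). HMLALPHA1 gave a value on 1 array, -1.43. MATALPHA2, which encodes alpha2, stood at -0.305 ± 0.23, below 0 on 4 arrays. HMLALPHA2 stood at -0.029 ± 0.21, with 2 arrays below 0 and 2 above. Neither alpha2 gene was called. The MAT and HML copies of each gene have the same coding sequence, so sequence alone cannot assign their spots to 1 locus. In an a strain, as BY4741 is commonly described, MAT does not carry these alpha genes. Which sequences their spots read in this strain was not tested. Of the other SIR genes, SIR2 stood at -0.275 ± 0.17, SIR3 at 0.034 ± 0.64 and SIR4 at 0.22 ± 0.335, none of them called. SIR3 and SIR4 were above 0 on arrays 1 and 3 and below 0 on arrays 2 and 4.

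In the pheromone signalling list, 15 of 19 genes were on 4 arrays, with a median of 0.15, and none of 10 passed in the duplicate-spot analysis. STE12, the transcription factor at the end of the pathway, read 1.64, 0.90, 0.82 and 0.54 and had the largest mean of those 15 genes (0.97 ± 0.47, adjusted p = 0.0826, limma). STE20, a kinase at its start, stood at 0.35 ± 0.245 and STE11, the MAP kinase kinase kinase, at -0.57 ± 0.62, neither of which passed (adjusted p = 0.202 and 0.238). STE12 passed in the duplicate-spot analysis only when array 1 was left out.

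Of the pheromone-induced genes, 14 of 19 were on 4 arrays, with a median of -0.0080, and 1 of 9 rose in the duplicate-spot analysis, where 5.31% of all genes passed higher. It was PRM6, a potassium transport protein, which read 3.17, 0.012, 2.04 and 1.02 (adjusted p = 0.0451, limma) and no longer passed without the length trend (adjusted p = 0.0724). With 1 array left out PRM6 passed only without array 2. Its mean was 2.60 over arrays 1 and 3 and 0.52 over arrays 2 and 4. PRM7 (1.06 ± 1.04) and PRM9 (0.59 ± 0.38) did not pass (adjusted p = 0.187 and 0.133, limma). For comparison FUS1, a cell fusion gene widely used as a reporter of the pathway, stood at -0.115 ± 0.23 (n = 4).

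The genes for enzymes that mature pheromone were on 4 arrays for 7 of 10, with a median of -0.030. STE14, the methyltransferase of a-factor maturation, read -0.30, -1.44, -1.13 and -0.46. It fell in the duplicate-spot analysis (mean -0.83 ± 0.54, adjusted p = 0.0326, limma), 1 of 5 genes, where 11.5% of all genes passed lower. It did not pass without the length trend (adjusted p = 0.0655, limma), and with 1 array left out it passed only without array 1. STE14 was lowest on arrays 2 and 3, unlike MFA1. STE24 and AXL1, proteases that trim a-factor, stood at -0.31 ± 0.19 and 0.365 ± 0.29 and did not pass (adjusted p = 0.211 and 0.217, limma). ASG7, a further a-specific gene, stood at 0.255 ± 1.03 and AFB1, a further alpha-specific gene that codes for an a-factor barrier, at 0.78 ± 1.33. AFB1 read 1.06, -1.18, 1.67 and 1.57, so it did not share the values below 0 of STE3 and SAG1. Over the 5 lists 2 of 36 genes passed higher and 2 lower in the duplicate-spot analysis, where 5.31% and 11.5% of all genes did. None of 52 passed over genes on 4 arrays, and 7 of them had an unadjusted p under 0.05 (limma), where 27.5% of all genes did. These shares are near or below those of all genes.

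**Figure D5:**
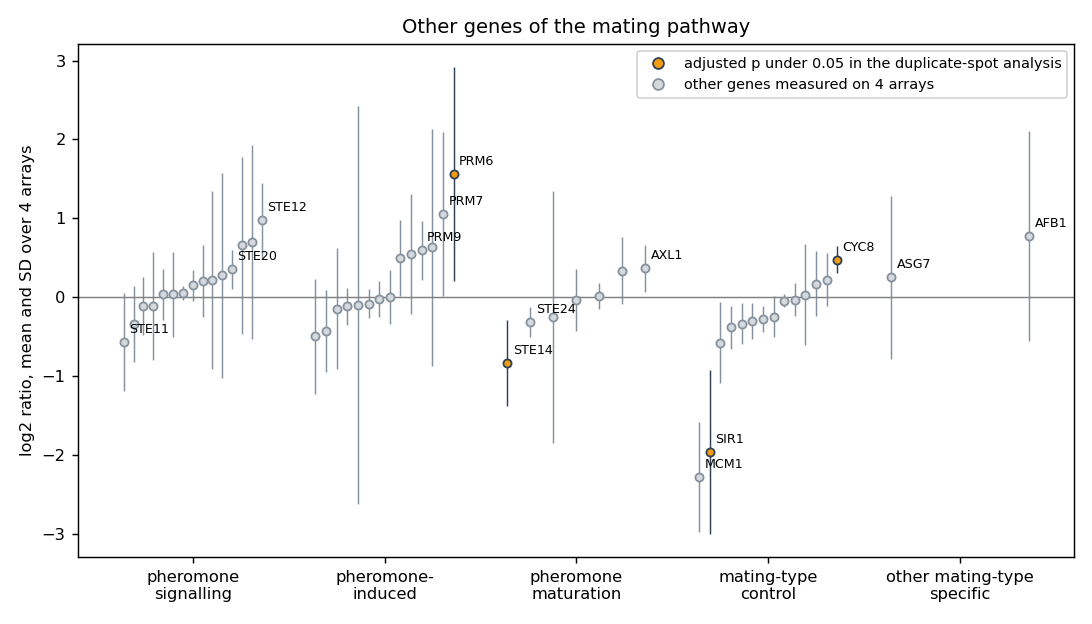
Mean log2 ratios over 4 arrays, with bars of 1 SD, are plotted for the other mating genes in 5 lists, with orange points for genes called in the duplicate-spot analysis. SIR1 and STE14 are called below 0 and PRM6 and CYC8 above, and MCM1, not called, has the lowest mean of -2.28.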

How the data were processed

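The table deposited by the authors holds, for 4 arrays of 12800 spots, the log2 ratio between the 2 channels of a spot. Their scanning, filtering and normalization are not described in the sources used here. The top value (16.61, the log2 of 100000) was treated as missing. The medians of the deposited log2 ratios (0.43, -0.25, 0.30 and 0.64 on arrays 1 to 4) were over 0.1 from 0, so each array was centred, and arrays with treated RNA in channel 1 were multiplied by -1. The platform annotation named 11138 spots, each with 1 gene, and left 1662 unnamed here; 5534 of 5539 genes were found in the RefSeq gene table (assembly R64), whose spans were used. No genome build is stated for the array, so no coordinates are printed.

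Spots of a gene were averaged, and ratios were tested against 0 in limma 3.58.1 (R 4.3.3; lmFit, eBayes, two-sided) over genes with values on all 4 arrays, with Benjamini-Hochberg adjustment over all of them and a threshold of 0.05. The duplicate-spot analysis required 2 spots within 1 log2 unit. The fit was tested on simulated data. The members, gene lists and analyses were chosen with earlier results of these data known, and the alternatives that combine the spot filter with a left-out array (4) or with channel order (1) were added after the data were seen. Named genes were the members, and from the lists those called and the 3 with the largest moderated t in each. MATALPHA1, MATALPHA2, HMLALPHA1, HMLALPHA2, HMRA1, HMRA2, HO, the other SIR genes and FUS1 were named besides, after their values were seen. Promoter motifs were not analysed here.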

Additional observations from a re-analysis of the deposited data

Results flagged for a closer look

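STE2, STE6 and BAR1 were below 0 on both arrays with treated RNA in channel 2 and above 0 on both with it in channel 1. The difference between these pairs of arrays (channel 2 minus channel 1) was -0.999 for STE2, -0.196 for STE6 and -0.499 for BAR1 on the log2 scale. The coefficient for channel order, which is the test of that difference, gave adjusted p of 0.872, 0.903 and 0.872 over genes on 4 arrays (limma). Of the 22 members and rule-named genes on 4 arrays, these 3 changed sign with channel order by the mean of their spots. Single spots of STE6 on arrays 3 and 4 and of BAR1 on array 1 had the other sign. By a Dixon rule, 0 of the 22 had an array that stood apart from the other 3. The rule weighs the gap to the nearest array against the range of all 4. It did not flag SAG1, although array 3 read -3.01 against -0.92, -1.325 and -1.05 on arrays 1, 2 and 4. Without array 3 the mean of SAG1 moved from -1.575 to -1.10, so the 0 does not show that the arrays were alike.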

How the results depend on the processing

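Each ratio compares treated with untreated RNA on the same array, so the test against 0 keeps that pairing. The arrays form 1 group of ratios, and no further pairing was used. No gene was called over genes on 4 arrays, where the smallest adjusted p was 0.0522 (limma). There were 93 calls with values as deposited, 214 with runs of 400 spots centred, 472 in the duplicate-spot analysis and 25 with the length trend removed. With both of the last there were 196, and 546 in the duplicate-spot analysis with channel order. Members called numbered 0, and 1 with runs centred (MFA2, -1.29, adjusted p = 0.0412), 2 in the duplicate-spot analysis (MFA1, -1.07, and MFA2, -1.10) and 3 there with channel order (AGA2 as well, at -0.89). Calls in the pathway lists numbered 1 with values as deposited, 1 with runs centred, 4 in the duplicate-spot analysis, 1 there without the length trend and 4 there with channel order. With 1 array left out, counts ran from 0 to 336 genes (336 without array 1 and 215 without array 2, both with the spot filter), 0 to 2 members (2 for each of these) and 0 to 3 list genes (3 and 2). The ratios then ran from -1.37 to -0.76 for MFA1, -1.26 to -0.97 for MFA2, -1.14 to -0.61 for AGA2, -0.35 to 0.10 for STE2, -0.066 to 0.017 for STE6 (above 0 without array 1), -0.054 to 0.15 for BAR1 (below 0 without array 2, and at -0.022 without array 4), -1.91 to -1.42 for STE3 (-1.89 without array 1, called with the spot filter) and -1.79 to -1.10 for SAG1. STE6 turned to 0.052 uncentred and 0.071 with runs centred. BAR1 turned to -0.09 without the length trend, to -0.056 with the spot filter too, and to -0.25 with no sign turned, where STE3 turned to 0.14. Of 160 member ratios under alternatives, 136 were counted as unchanged. For members on 4 arrays that means the same direction and still no call, since none was called over genes on 4 arrays. For MF(ALPHA)1 and MF(ALPHA)2 it means a value within the SD of the mean, with no call to keep. The alternative that took the median of spots gives the mean where there are 2. The causes were not tested. Signal over background was not analysed here.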
